A study of Mus musculus with 10 samples.

Results

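The genes described here are 10 of the 57186 Ensembl mouse genes in the deposited count table: Lyz2, Ccl6, Cd68, Gpnmb, Cd74, H2-Aa, H2-Ab1, H2-Eb1, Lgals3 and Mrc1. They were picked by name as genes of activated or infiltrating phagocytes, and some of them because their values lay higher in the nanoparticle group of these same libraries. Bulk polyadenylated RNA was sequenced from mouse neuroretina, the light-sensing nervous tissue of the eye, of female C57BL6/JRj mice, 14 days after they were injected intravitreally. The CNP group (5 libraries) received 1 µL of hg-C3N4, a carbon nitride nanoparticle, suspended in phosphate-buffered saline (PBS) at 1 mg/mL, and the PBS group (5 libraries) received PBS, so that both groups share the injection with a 34-gauge blunt needle. No uninjected retina is among the libraries. Libraries are named by group and the number in their labels, and nothing states that each came from a separate animal, so the spread between them may be partly technical.

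Phagocytes take up particles and dead cells and digest them in lysosomes. In the retina this is the task of microglia, the resident macrophages, joined after injury by macrophages from vessels, the ciliary body or blood; the pigment epithelium, which lies against the retina, digests photoreceptor debris as well. Activated phagocytes can also display peptides of what they have digested on MHC class II, a pair of an alpha and a beta chain that is guided to the endosome by the invariant chain, Cd74. MHC class II genes are switched on together by the coactivator Ciita, which binds a complex on the X and Y boxes in front of each gene.

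The upstream sequences of H2-Aa, H2-Eb1 and H2-DMb1 are shown because letters of the X or Y box, through which MHC class II genes are usually switched on together, lie near their starts. They come from RefSeq's GRCm38.p6 annotation, are 250 bases long, end just before the transcript start and read 5′ to 3′ on the gene's strand. Capitals mark the letters GATTGG, the core of the Y box, on either strand, and AGNAACNGA, a core of the X box; no X and Y match overlapped. H2-Aa lies on the minus strand at chr17:34287824-34288073, H2-Eb1 on the plus strand at chr17:34305617-34305866, and H2-DMb1, a chaperone of peptide loading on the same chromosome, on the plus strand at chr17:34152941-34153190.
H2-Aa: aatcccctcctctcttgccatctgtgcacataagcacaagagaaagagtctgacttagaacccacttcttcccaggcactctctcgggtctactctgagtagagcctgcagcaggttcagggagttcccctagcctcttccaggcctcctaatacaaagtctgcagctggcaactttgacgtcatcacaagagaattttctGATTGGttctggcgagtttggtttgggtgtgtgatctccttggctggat
H2-Eb1: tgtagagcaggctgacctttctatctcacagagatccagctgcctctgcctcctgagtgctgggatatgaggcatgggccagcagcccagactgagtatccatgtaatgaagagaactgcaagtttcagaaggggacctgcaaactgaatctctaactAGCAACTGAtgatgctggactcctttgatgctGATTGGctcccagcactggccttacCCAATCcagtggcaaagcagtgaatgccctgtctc
H2-DMb1: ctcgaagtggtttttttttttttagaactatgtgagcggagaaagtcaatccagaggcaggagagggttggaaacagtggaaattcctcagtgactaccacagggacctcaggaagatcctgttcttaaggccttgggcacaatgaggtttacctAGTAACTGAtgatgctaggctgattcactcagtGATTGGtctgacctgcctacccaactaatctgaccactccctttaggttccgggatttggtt
The Y core began 49 bases before the start of H2-Aa, 60 before that of H2-Eb1 and 62 before that of H2-DMb1, and H2-Eb1 held another match on the other strand, 35 bases before its start. The X core began 92 bases before the start of H2-Eb1 and 95 before that of H2-DMb1, and these letters were not in the window of H2-Aa. Looser matches were not searched for, so this does not show that H2-Aa lacks an X box. H2-DMa, not printed, has a pair of windows in the table: 1 held neither core, and the other a Y core 199 bases before the start and no X core. The Y core is not particular to MHC class II genes here, since the window of Cd68 held it 84 bases before the start, on the other strand. Of 32851 upstream windows in the table, 14.6% held the Y core and 4.42% the X core on either strand. The table matched 8 of the 10 genes, and Cd74 and H2-Ab1 are named only.

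Lyz2 has a near copy beside it, Lyz1, which is mainly the lysozyme of the gut, and reads of the pair can be hard to tell apart. The first 150 coding bases of each are shown with the 14 positions at which they differ in capitals. They come from GENCODE M21 transcripts; on GRCm38, Lyz2 spans chr10:117277331-117282321 and Lyz1 chr10:117287797-117292868, both on the minus strand.
Lyz2: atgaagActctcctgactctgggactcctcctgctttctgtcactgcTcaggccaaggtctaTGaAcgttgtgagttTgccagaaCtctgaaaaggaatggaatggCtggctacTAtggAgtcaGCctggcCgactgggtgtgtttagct
Lyz1: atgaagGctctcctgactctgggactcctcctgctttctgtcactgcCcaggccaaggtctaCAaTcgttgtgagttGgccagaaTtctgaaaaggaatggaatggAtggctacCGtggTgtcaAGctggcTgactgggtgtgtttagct
Over 444 coding bases the pair differed at 22, and the last 300 transcript bases aligned with 96.9% identity. Of the 50-base windows in the Lyz2 transcript, 15.4% were also in Lyz1, letter for letter, and of the 90-base windows 3.59%; the length of the reads is stated in no source used here. Lyz1 itself had 2 counts in PBS and 2 in CNP, against 80 and 200 for Lyz2. No source used here says how reads that fit both were counted, so the Lyz2 values are uncertain by what the pair shares.

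Library totals ran from 3328518 to 5428697 counts, at which 0 counts in a library still allow 0.553 to 0.901 CPM (counts per 1e6 counts of the library), a limit for counting error only. Gnat1, the transducin subunit of rods and a marker of neuroretina, had 142917 counts in PBS and 135016 in CNP, a log2 fold change of CNP against PBS of -0.09 (SE 0.19). Depth, mitochondrial share and scores for lens, pigment epithelium, blood and microglia were compared between the groups, and 0 of these 6 passed (smallest adjusted p = 0.952, exact permutation test, two-sided). Lens transcripts summed to 337 to 13901 CPM in PBS and 386 to 5463 CPM in CNP; of 13 lens genes tested, 0 were called and all 13 were below 0, with a median log2 fold change of -1.44, from -1.17 (SE 0.87) for the crystallin Cryaa to -1.87 (SE 0.89) for the water channel Mip. Pigment epithelium and melanocyte transcripts summed to 275 to 1034 CPM in PBS and 519 to 1255 CPM in CNP; Rpe65, the visual cycle enzyme of pigment epithelium, had 0.48 (SE 0.44), Tyr, the melanin enzyme, 0.48 (SE 0.49), and Pmel, a pigment granule gene, 41 counts in PBS and 40 in CNP. Of 6 tested pigment genes 0 were called, and 5 were above 0 with 1 below, Tyrp1, another melanin gene, at -0.44 (SE 0.42); the median was 0.38.

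Across the whole table edgeR's quasi-likelihood test called 0 of 11499 tested genes (0% of the tested genes at an adjusted p under 0.05), with 137 at an unadjusted p under 0.05 (1.19%), and DESeq2 and limma-voom called 0 as well. Of the 10 phagocyte genes, 8 passed the low-count filter, and 0 of these 8 were called. Their log2 fold changes were all above 0, as were 48.8% of all tested genes, and 5 of the 8 were above 1.5-fold, as were 0.4% of all. The median log2 fold change was 0.72 for the 8 and -0.0036 for all 11499. These counts describe a choice that was made partly on this contrast, so nothing is read from them. The filter, about 2.31 CPM in 5 libraries, added to this: Ccl6 and H2-Aa cleared that level in 5 CNP libraries and 1 PBS library each, Cd74 in 5 and 3, and Cd68 in 4 and 2. H2-Eb1 and Mrc1 did not pass. In bulk tissue, more cells of a type and more RNA per cell cannot be told apart.

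**Figure D1:**
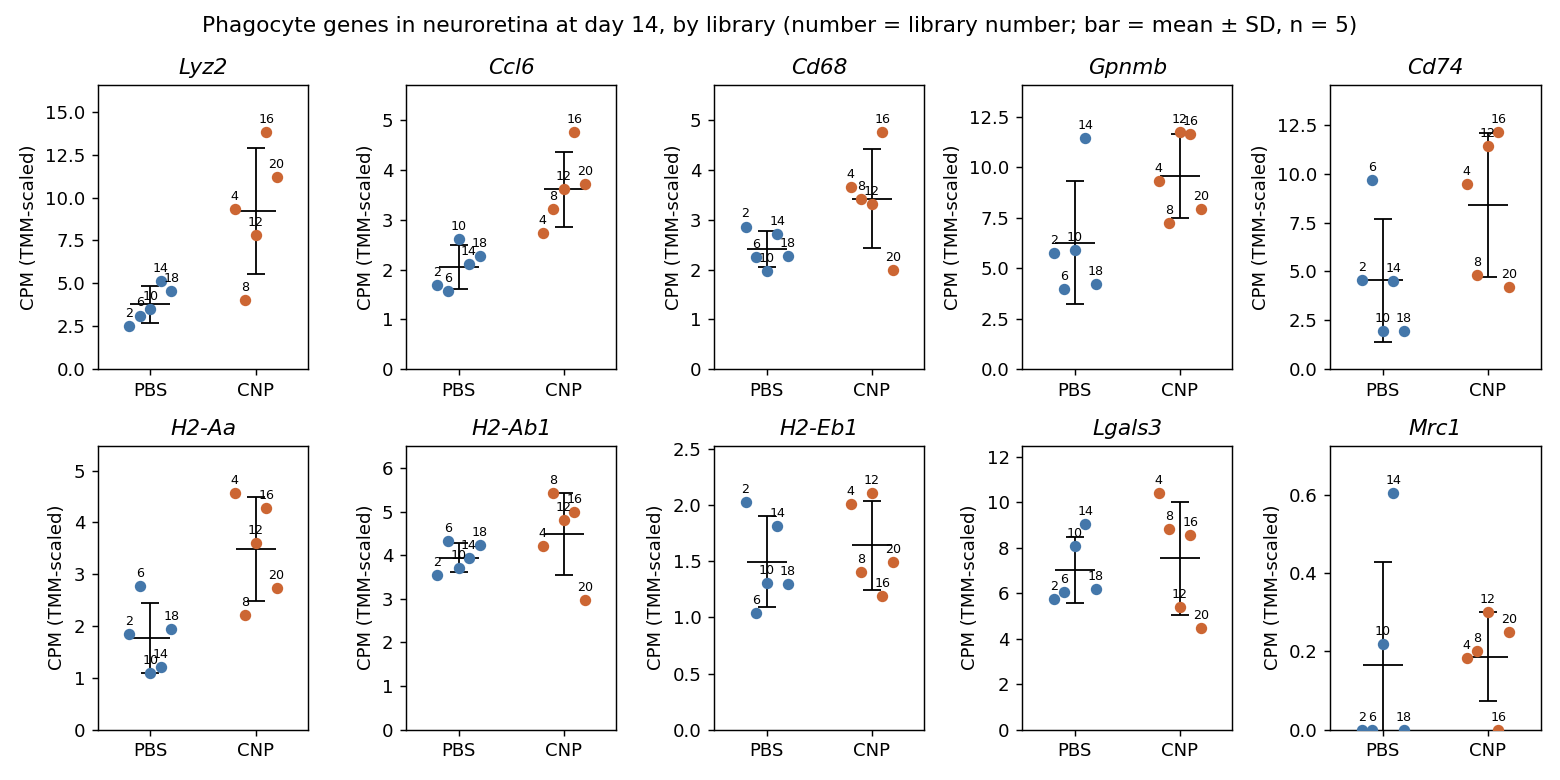
Level of each of the 10 genes in CPM scaled by TMM (vertical axes, each starting at 0) in the PBS and CNP libraries; points are libraries with their number, bars the mean ± SD (n = 5). Ccl6 is the gene whose CNP libraries all sit above its PBS libraries, and H2-Eb1, Lgals3 and Mrc1 overlap widely.

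Lyz2 encodes the lysozyme M of macrophages and neutrophils, an enzyme that cuts bacterial cell walls. The PBS libraries held 15 counts in PBS 2, 18 in PBS 6, 16 in PBS 10, 17 in PBS 14 and 14 in PBS 18. The CNP libraries held 51 in CNP 4, 20 in CNP 8, 26 in CNP 12, 58 in CNP 16 and 45 in CNP 20. CNP 8 was the low library of its group and lay among the PBS libraries once scaled, while the other 4 lay above every PBS library. On the CPM scale Lyz2 averaged 3.77 ± 1.06 (SD) over the PBS libraries and 9.23 ± 3.67 over the CNP libraries (n = 5 each), a log2 fold change of 1.34 (SE 0.31). The squared spread within groups was 3.05 times what counting alone gives, a ratio called the dispersion index below. Unscaled, the PBS counts ran from 14 to 18 and the CNP counts from 20 to 58. Scaled for depth, PBS ran from 2.53 to 5.13 CPM and CNP from 4.02 to 13.8 CPM.

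Ccl6 encodes a chemokine of mouse myeloid cells that attracts macrophages and other leukocytes. PBS 2 held 10 counts, PBS 6 held 9, PBS 10 held 12, PBS 14 held 7 and PBS 18 held 7. CNP 4 held 15, CNP 8 held 16, CNP 12 held 12, CNP 16 held 20 and CNP 20 held 15. Scaled to CPM, the lowest CNP library (CNP 4, 2.74 CPM) lay just above the highest PBS library (PBS 10, 2.62 CPM), so the groups did not overlap, as held for 0.122% of the tested genes in this direction. The means were 2.05 ± 0.434 and 3.61 ± 0.751 CPM (5 libraries each, SD), and the log2 fold change was 0.83 (SE 0.24). Its dispersion index was 0.495, below the value of 1 that counting alone gives.

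Of 17 listed chemokine and receptor genes, 3 besides Ccl6 could be tested, and 0 were called; 1 was above 0 and 2 below. Ccl9, the neighbouring and closely related gene of the same cluster, had 157 counts in PBS and 166 in CNP (log2 fold change 0.08, SE 0.24). Cxcl16, a membrane-bound chemokine, had -0.20 (SE 0.14). Ccl12, a monocyte attractant named after its values were seen, held 67 counts in PBS 6, 10 to 16 elsewhere in PBS and 16 to 24 in CNP. Ccr2, the receptor of blood monocytes, had 1 count in PBS and 2 in CNP, and Cx3cr1, the fractalkine receptor of microglia, 52 and 34.

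Cd68 encodes a heavily glycosylated protein of the lysosome membrane and is a general marker of phagocytes. Its counts were 17 in PBS 2, 13 in PBS 6, 9 in PBS 10, 9 in PBS 14 and 7 in PBS 18. In CNP they were 20 in CNP 4, 17 in CNP 8, 11 in CNP 12, 20 in CNP 16 and 8 in CNP 20. Scaled for depth, 4 CNP libraries lay above every PBS library and CNP 20, at 1.99 CPM, lay among the lowest of all. Cd68 averaged 2.42 ± 0.369 CPM (SD) over PBS and 3.43 ± 0.990 over CNP (n = 5 each), with a log2 fold change of 0.50 (SE 0.24) and a dispersion index of 0.798.

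Gpnmb encodes a membrane glycoprotein that lipid-laden and lysosome-stressed macrophages make, and that pigment cells make as well. Counts were 34 in PBS 2, 23 in PBS 6, 27 in PBS 10, 38 in PBS 14 and 13 in PBS 18. They were 51 in CNP 4, 36 in CNP 8, 39 in CNP 12, 49 in CNP 16 and 32 in CNP 20. PBS 14, at 11.5 CPM, stood far above the rest of its group (3.98 to 5.89 CPM) and level with the highest CNP libraries, which reached 11.7 CPM. The means were 6.26 ± 3.04 and 9.58 ± 2.08 CPM (SD, n = 5 each), and the log2 fold change was 0.64 (SE 0.27), or 0.93 without PBS 14. PBS 14 also had the highest pigment epithelium score of its group, 5.31 against 3.09 to 4.76 (mean log2 CPM of 6 genes), and CNP 12, level with it in Gpnmb, had 5.33. CNP 16, as high in Gpnmb at 11.7 CPM, had a score of 4.58, and PBS 18 had 4.76 with Gpnmb at 4.23 CPM. Which cells the Gpnmb transcripts came from was not tested. With the pigment epithelium score in the model the log2 fold change of Gpnmb was 0.47, and with library number above 10 in its place 0.54. The score was 3.09 to 4.25 in libraries numbered up to 10 and 4.58 to 5.33 in those above. The score and the library number therefore rose together, and which of them the change in the estimate of Gpnmb went with was not tested.

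The wider phagocytosis and lysosome list held 14 other tested genes, of which 0 were called, 9 were above 0 and 5 below, with a median log2 fold change of 0.07. Ctsb, a lysosomal protease, had 0.07 (SE 0.12) and Apoe, the lipid carrier that Mueller glia also make, 0.07 (SE 0.12). Neither gene is specific to phagocytes. Of genes more restricted to phagocytes, named after their values were seen, Fcer1g, a signalling chain of antibody receptors, had 0.29 (SE 0.14), Trem2, a lipid receptor, 0.18 (SE 0.22), its adaptor Tyrobp 0.16 (SE 0.26) and Fcgr3, an antibody receptor, 0.15 (SE 0.21). Below the filter Clec7a, a receptor for fungal sugars, had 11 counts in PBS and 23 in CNP. Of those 23, CNP 4 held 11 and CNP 16 held 7. Mertk, a receptor for dying cells, had 24 counts in PBS and 12 in CNP, and Fcgr1, another antibody receptor, 13 and 11. Lpl, a lipase, had -0.49 (SE 0.28), the lowest of the 14.

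**Figure D2:**
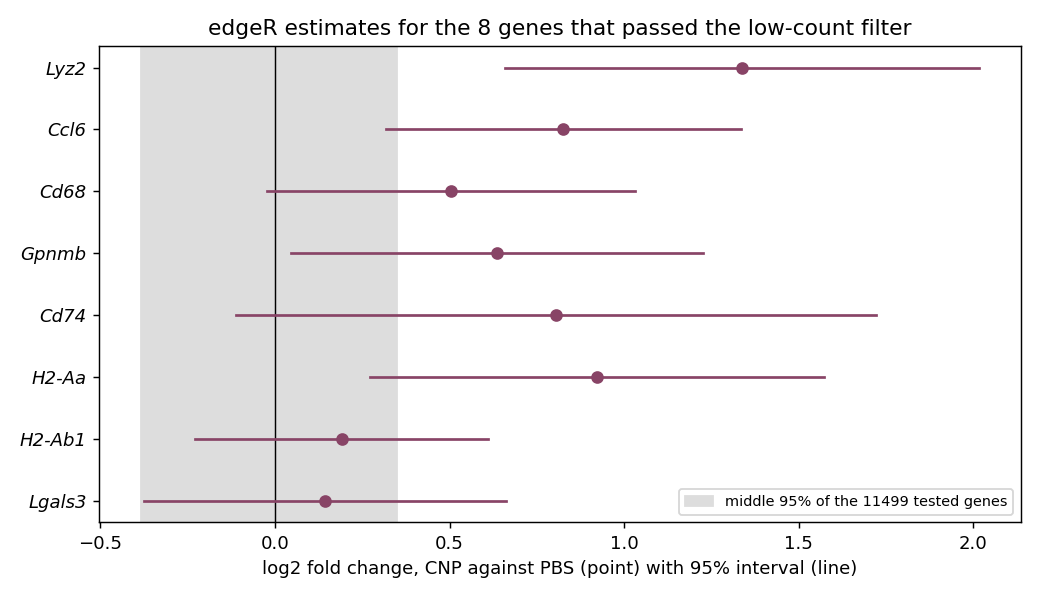
Log2 fold change of CNP against PBS from edgeR (horizontal axis) for the 8 genes that passed the low-count filter, with 95% intervals as lines; the grey band holds the middle 95% of the 11499 tested genes, from -0.38 to 0.35. Lyz2 has the largest estimate of the 8 at 1.34 and Lgals3 the smallest at 0.14. The intervals give the uncertainty of each estimate. The genes were chosen partly on this contrast, so the intervals test nothing.

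Of the MHC class II genes, Cd74 and H2-Aa averaged higher in CNP, and the beta chain genes showed smaller differences. Cd74 is the invariant chain, which fills the peptide groove until the endosome is reached. Its counts were 27 in PBS 2, 56 in PBS 6, 9 in PBS 10, 15 in PBS 14 and 6 in PBS 18. In CNP they were 52 in CNP 4, 24 in CNP 8, 38 in CNP 12, 51 in CNP 16 and 17 in CNP 20. Both groups thus held high and low libraries: PBS 6 stood level with CNP 4, and CNP 8 and CNP 20 level with PBS 2 and PBS 14. The means were 4.54 ± 3.16 and 8.43 ± 3.70 CPM (SD, n = 5 each), with a log2 fold change of 0.81 (SE 0.42) that became 1.33 without PBS 6 and 0.62 without PBS 10. The dispersion index of 8.96 was the highest of the 10 genes.

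H2-Aa encodes the alpha chain of the A molecule. Its counts were 11 in PBS 2, 16 in PBS 6, 5 in PBS 10, 4 in PBS 14 and 6 in PBS 18. They were 25 in CNP 4, 11 in CNP 8, 12 in CNP 12, 18 in CNP 16 and 11 in CNP 20. The groups overlapped through PBS 6, at 2.77 CPM, which lay above CNP 8 and CNP 20. The means were 1.78 ± 0.674 and 3.48 ± 1.00 CPM (SD, n = 5 each), and the log2 fold change was 0.92 (SE 0.30).

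H2-Ab1 encodes the beta chain that pairs with H2-Aa. PBS 2 held 21 counts, PBS 6 held 25, PBS 10 held 17, PBS 14 held 13 and PBS 18 held 13. CNP 4 held 23, CNP 8 held 27, CNP 12 held 16, CNP 16 held 21 and CNP 20 held 12. Scaled, the 5 PBS libraries lay between 3.54 and 4.33 CPM, and the CNP libraries surrounded them, from 2.98 CPM in CNP 20 to 5.43 in CNP 8. Its log2 fold change was 0.19 (SE 0.19), 0.11 without CNP 8 and 0.30 without CNP 20, and no test was made of whether it differs from that of its partner H2-Aa.

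H2-Eb1 encodes the beta chain of the E molecule; in C57BL/6 mice the matching alpha chain gene, H2-Ea, is not expressed because of a deletion. H2-Eb1 counts were 12 in PBS 2, 6 in PBS 6, 6 in PBS 10, 6 in PBS 14 and 4 in PBS 18. They were 11 in CNP 4, 7 in CNP 8, 7 in CNP 12, 5 in CNP 16 and 6 in CNP 20. The groups overlapped throughout, with 34 counts in PBS and 36 in CNP. H2-Ea was at 0 counts in all libraries; at the pooled depth a level below 0.0677 CPM could have been missed.

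Of 21 listed genes of the MHC class II pathway, 6 besides the 4 named above could be tested, 0 were called, and 3 were above 0 and 3 below, with a median log2 fold change of 0.0094. Ctss, the protease that trims the invariant chain, had 0.20 (SE 0.18), and Marchf1, a ligase that takes MHC class II off the cell surface, had 0.02 (SE 0.17). H2-DMa, the alpha chain of the peptide-loading chaperone, had 97 counts in PBS and 94 in CNP (log2 fold change -0.0014, SE 0.34), and H2-DMb1, its partner, 29 and 33. Rfx5, a DNA-binding part of the complex on the X box, had 0.14 (SE 0.19). Ciita was at 0 in all 10 libraries. As for H2-Ea, a level below 0.0677 CPM at the pooled depth could have been missed. Summed over the 4 genes, MHC class II transcripts reached 71 counts in PBS 2, 103 in PBS 6, 37 in PBS 10, 38 in PBS 14 and 29 in PBS 18. The sums were 111 in CNP 4, 69 in CNP 8, 73 in CNP 12, 95 in CNP 16 and 46 in CNP 20. Relative to totals, CNP 8 stood at 15.1 CPM, PBS 6 (19.3 CPM) stood with the 3 high CNP libraries (20.7 to 21.9 CPM), and CNP 20 (10.9 CPM) lay within the range of the other PBS libraries (8.55 to 13.1 CPM).

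Lgals3 encodes galectin 3, a sugar-binding protein that marks damaged lysosomes and activated phagocytes. Counts were 34 in PBS 2, 35 in PBS 6, 37 in PBS 10, 30 in PBS 14 and 19 in PBS 18. They were 57 in CNP 4, 44 in CNP 8, 18 in CNP 12, 36 in CNP 16 and 18 in CNP 20. CNP held both the highest and the 2 lowest libraries on the CPM scale: PBS ran from 5.73 to 9.06 CPM with a mean of 7.02, and CNP from 4.47 to 10.4 CPM with a mean of 7.55 (n = 5 each). The log2 fold change was 0.14 (SE 0.24), and it was -0.0045 without CNP 4 and 0.28 without CNP 20. In the galectin list, of the 4 other genes tested, 0 were called and 2 were above 0; Lgals8 had 0.14 (SE 0.10) and Lgals1 0.16 (SE 0.16).

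Mrc1 encodes the mannose receptor of perivascular and other tissue macrophages. It had 0 counts in PBS 2, PBS 6 and PBS 18, 1 in PBS 10 and 2 in PBS 14. It had 1 count in CNP 4, CNP 8, CNP 12 and CNP 20 and 0 in CNP 16. With 3 counts in PBS and 4 in CNP, no difference was detectable at this depth.

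**Figure D3:**
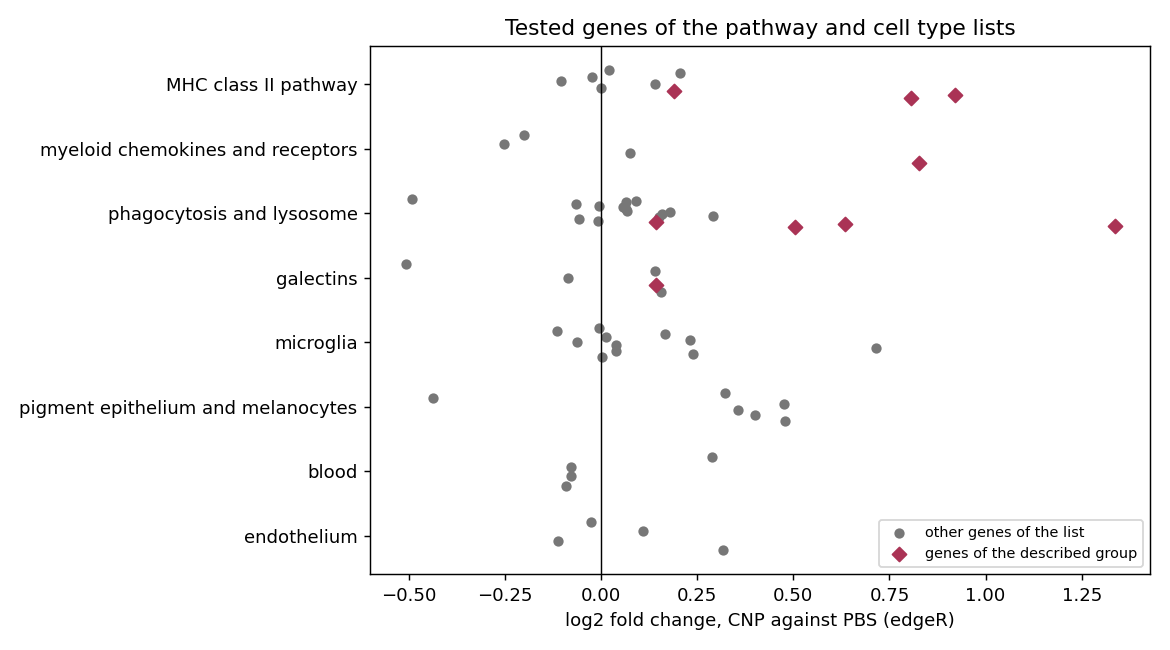
Log2 fold change of CNP against PBS from edgeR (horizontal axis) for the tested genes of 8 lists (rows); diamonds are the genes described here and grey circles the other genes of each list. The other MHC class II and phagocytosis genes lie around 0, with medians of 0.0094 and 0.07. Of the diamonds 5 lie above 1.5-fold, but they were chosen partly on this contrast, so nothing is read from the difference.

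Genes that mark other cells give the setting. Of 15 microglia genes 11 were tested, 0 were called, and 8 were above 0 and 3 below, with a median log2 fold change of 0.04; their summed level was 145 to 232 CPM in PBS and 147 to 243 CPM in CNP. Aif1, which encodes IBA1, had -0.11 (SE 0.27), P2ry12, an ADP receptor of resting microglia, 0.0014 (SE 0.31), and Tmem119, a microglia surface marker, 0.24 (SE 0.27). C1qc, a complement chain, had 0.17 (SE 0.16). Gpr34, a lysophospholipid receptor named after its values were seen, had 58 counts in PBS and 91 in CNP (0.72, SE 0.23). Of the 10 perivascular and border macrophage genes only Lyve1 could be tested (log2 fold change 0.0032, SE 0.34), a gene that vessels express too. Lyve1 held 209 of the 252 counts of these genes other than Mrc1 in PBS and 196 of 268 in CNP, so the list's summed level, 4.59 to 17.7 CPM in PBS and 8.31 to 15.9 CPM in CNP, is mostly that gene. Below the filter, and named after their values were seen, Adgre1, which encodes the macrophage marker F4/80, had 10 counts in PBS and 22 in CNP, and Ms4a7, a macrophage membrane protein, 11 and 24. Of those 22 Adgre1 counts, 12 were in CNP 4. Folr2 had 5 counts in PBS and 1 in CNP, Stab1 had 9 and 4, and Cd163 was at 0 in every library. Of 7 monocyte genes only Fn1, a matrix gene of many cells, could be tested (0.24, SE 0.35), and Chil3 was at 0.

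Blood leukocyte markers were at or near 0. Over the 8 neutrophil genes, the PBS libraries held 4 counts in all and the CNP libraries 10, with Ly6g, Elane, Ngp and Camp at 0 in every library. The 7 lymphocyte and general leukocyte genes summed to 9 and 8 counts, with Ptprc, which encodes the leukocyte antigen CD45, at 7 and 3. Of the dendritic cell genes, Xcr1 and Clec9a were at 0, and Zbtb46, which vessels express too, had a log2 fold change of 0.51 (SE 0.26; 56 counts in PBS and 78 in CNP). Flt3, a growth factor receptor of dendritic cells and their precursors, named after its values were seen, lay the other way below the filter, with 33 and 18 counts. At these counts a difference in such cells was not detectable. Endothelial genes summed to 28.3 to 43.3 CPM in PBS and 28.7 to 46.1 in CNP, with Flt1, a receptor of vascular growth factor, at -0.03 (SE 0.14) and Cldn5, a tight junction gene, at 0.32 (SE 0.20). Of 4 blood genes tested, Hbb-bs had -0.08 (SE 0.24) and Hba-a1 -0.09 (SE 0.25).

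How the genes moved together was compared within groups, with the group mean removed, since the choice of genes did not use that part of their variation. For Ccl6, Cd68, H2-Ab1, H2-Eb1 and Mrc1 it did not exceed counting error, with dispersion indices of 0.495, 0.798, 0.726, 0.518 and 0.928. Correlations of these genes could therefore hardly pass. The index of H2-Aa was 1.44, on counts down to 4, and whether that exceeds counting error was not tested. Of 45 pairs, 29 had a positive correlation and 0 passed after adjustment (smallest adjusted p = 0.804 for Pearson's r and 0.860 for Spearman's rho, exact permutation within groups). The highest was that of Cd74 with H2-Aa, at r = 0.71 (exact permutation p = 0.0441, two-sided, adjusted p = 0.804) and rho = 0.61 (exact permutation p = 0.0770, adjusted p = 0.860), over 10 libraries. Without CNP 12 and CNP 16, the libraries farthest from the median of Cd74, r was 0.68. With the means of library numbers up to 10 and above 10 removed as well, it was 0.70. Seen from Cd74, H2-Aa ranked 91 of 11498 tested genes in this measure, the top 0.791%. Seen from H2-Aa, Cd74 ranked 53. The beta chain gene H2-Ab1 ranked 1746 from Cd74, the top 15.2%, and 3687 from H2-Aa, the top 32.1%.

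For the beta chains, H2-Ab1 had r = 0.34 with Cd74 and 0.18 with H2-Aa, and H2-Eb1, on few counts, 0.05 and -0.11. Lyz2 and Ccl6 had r = 0.53 with each other (0.23 without CNP 16 and CNP 20) and values with the MHC class II genes from 0.24, for Lyz2 with H2-Aa, down to -0.38, for Ccl6 with Cd74. Cd68 had r = 0.65 with H2-Ab1, 0.57 with Lgals3 and 0.54 with Cd74. None of these passed. The 3 most similar genes to each of the 8 tested genes, 24 in all, had r from 0.87 to 0.98. These are the highest of 11498 correlations for each gene over 10 libraries, and whether they exceed chance was not tested. The closest gene was Fahd2a for Ccl6 (0.98), C030014I23Rik for Gpnmb (0.98), Nt5c for Cd68 (0.96), A930005H10Rik for Lyz2 (0.95) and Cracr2b for H2-Ab1 (0.94). It was Mob3a for Cd74 (0.91), Rac3 for Lgals3 (0.91) and Mospd2 for H2-Aa (0.88). Of the 24, 0 belong to any phagocyte or cell type list used here. Those lists name only 168 genes, tested or not, against 11498 compared, so nothing is read from this 0.

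**Figure D4:**
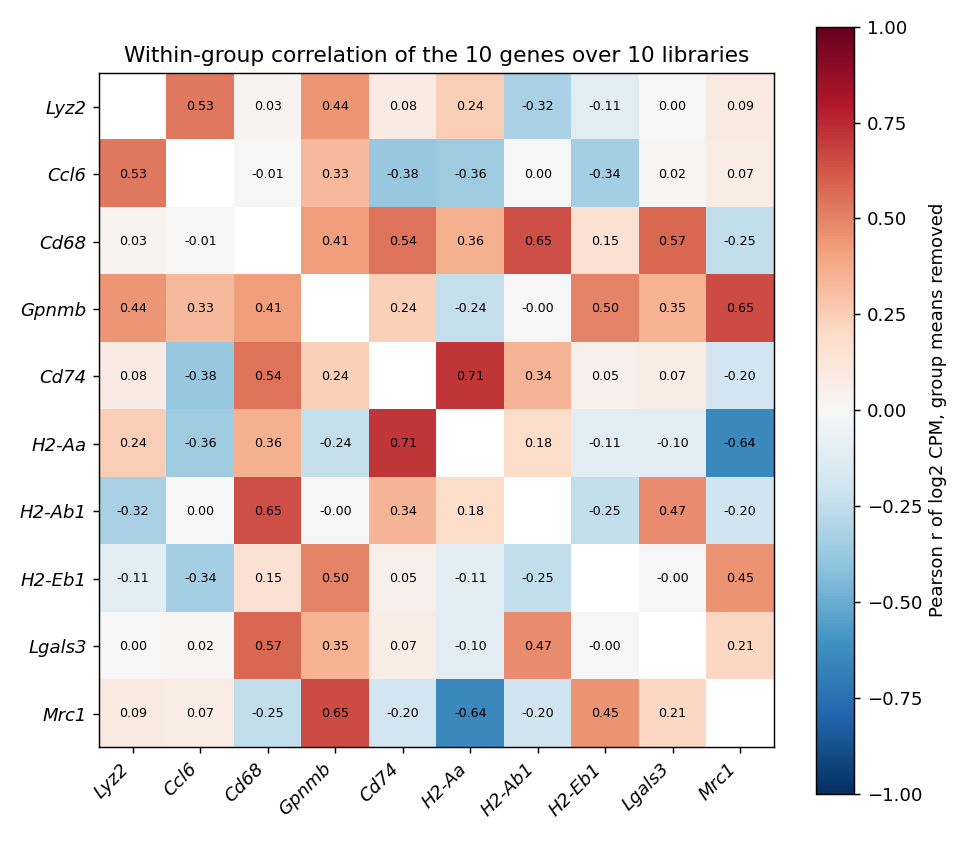
Pearson correlation of log2 CPM with group means removed, for every pair of the 10 genes (rows and columns) over 10 libraries; red is positive and blue negative. The pair of Cd74 and H2-Aa holds the highest value, 0.71, and 0 of the 45 pairs passed after adjustment.

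Of 50 correlations of the 10 genes with library depth and with lens, pigment epithelium, blood and microglia scores, 0 passed after adjustment (smallest adjusted p = 0.689 for r and 0.708 for rho, exact permutation within groups). H2-Aa and the lens score had r = -0.73 (exact permutation p = 0.0317) and rho = -0.78 (exact permutation p = 0.0185), and r = -0.51 without PBS 10 and PBS 14. Gpnmb and the pigment epithelium score had r = 0.67 (exact permutation p = 0.0653) and rho = 0.61 (exact permutation p = 0.0976), and r = 0.83 without PBS 6 and PBS 18. Lyz2 and that score had r = 0.57 (exact permutation p = 0.0642) and rho = 0.61 (exact permutation p = 0.0747), and r = 0.69 without CNP 16 and CNP 20. With the score in the model the log2 fold change of Lyz2 was 1.17, and with library number above 10 in its place it was 1.17 too. Within each group the score was higher in every library numbered above 10 than in any up to 10. The r and rho of Gpnmb and Lyz2 above were taken without removing the means of these sets. They therefore include any difference between library numbers. Cd68 had r = 0.64 with the microglia score (exact permutation p = 0.0934), with rho = 0.31 (exact permutation p = 0.417).

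**Figure D5:**
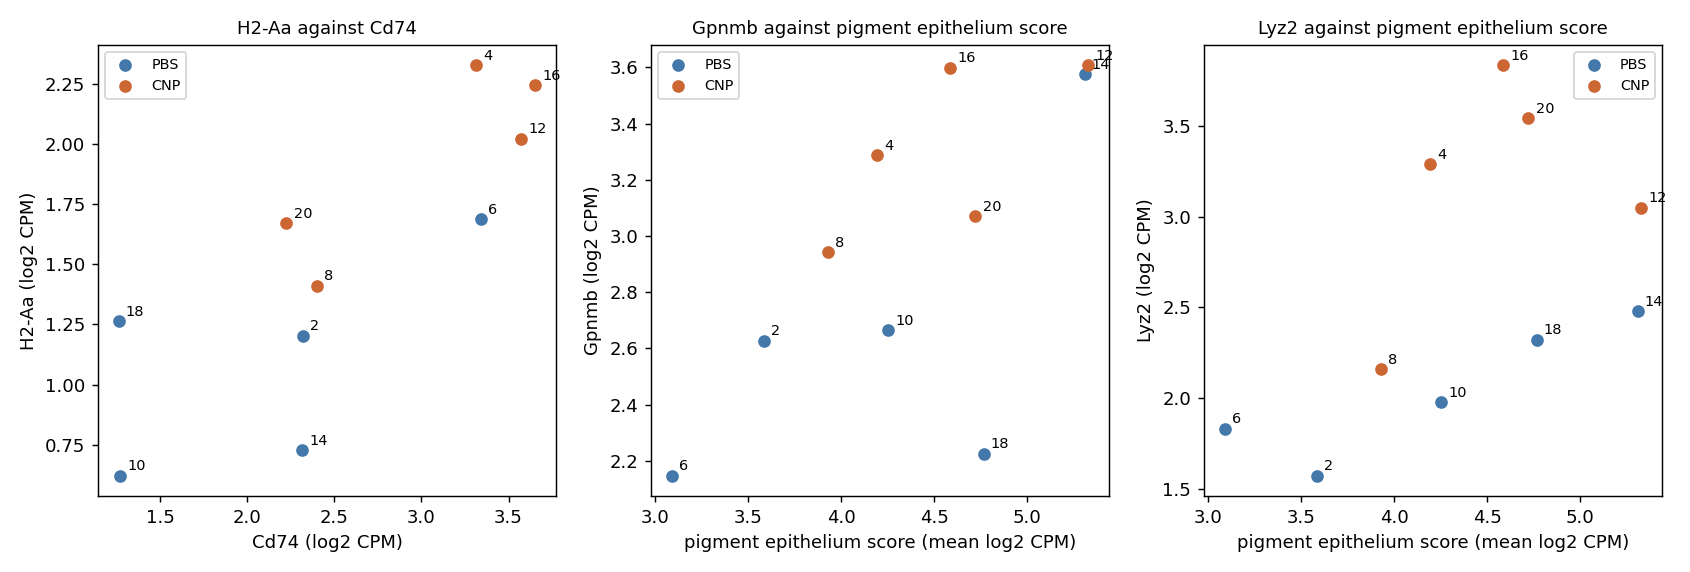
Each point is a library with its number, PBS in blue and CNP in orange. Left, H2-Aa against Cd74, both in log2 CPM; middle and right, Gpnmb and Lyz2 in log2 CPM against the pigment epithelium score, the mean log2 CPM of 6 genes, in which PBS 14 and CNP 12 hold the highest scores of their groups, 5.31 and 5.33.

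The library numbers split the groups unevenly, with 3 PBS and 2 CNP libraries up to 10 and 2 PBS and 3 CNP libraries above, and the labels do not call this a batch. The difference of mean log2 CPM between CNP and PBS was 0.93 for Lyz2 among numbers up to 10 and 1.07 above. It was 0.54 and 0.75 for Ccl6, 0.52 and 0.30 for Cd68, 0.64 and 0.53 for Gpnmb, and 0.70 and 0.98 for H2-Aa. For Cd74 it was 0.55 and 1.36. For H2-Ab1 it was 0.28 and 0.03, and for H2-Eb1 0.20 and 0.02. Lgals3 differed in sign, with 0.52 up to 10 and -0.31 above, and so did Mrc1, on its few counts, with 0.32 and -0.16; whether these values differ between the sets was not tested.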

How the data were processed

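Polyadenylated RNA of 10 neuroretina libraries was copied with primers that hold a barcode and a unique molecular identifier, per the labels' protocols. STAR, STARsolo and build GRCm39 are named in the submitters' processing notes; versions, annotation, strand and collapsing of identifiers are stated in no source used here; uncollapsed identifiers would make counting intervals too narrow. The authors deposited 1 table of raw counts per Ensembl gene, and symbols matched 51880 of its 57186 IDs.

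Counts were filtered with filterByExpr (minimum count 10, minimum total 15), scaled by TMM and tested with edgeR 4.0.16 in R 4.3.3, with Benjamini-Hochberg adjustment over 11499 genes and a threshold of 0.05. The SE is the log2 fold change divided by the root of F. Log2 CPM used a prior count of 2; summed list levels are CPM on library totals. The dispersion index is the within-group chi-square of a gene's counts, given library totals, per degree of freedom. Correlations used all 14400 permutations within groups, group comparisons of library measures all 252 assignments. Libraries of 1 group differed beyond counting noise (chi-square per degree of freedom from 3.99 to 32.6). Scripts were tested on simulated data. Promoters are RefSeq's on GRCm38.p6, another build than the counts.

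The genes and lists were chosen with earlier results of these data known. Named are the 10 genes; of each list, non-members past the threshold or, with none, the 2 most abundant tested ones; fixed markers; and the genes most alike. Some genes that this rule names are not reported here. Alternatives were DESeq2 1.42.0, limma-voom (limma 3.58.1), other scalings, no filter, covariates, other prior counts and each library left out. H2-Ea and Marchf1 stand as H2-Ea-ps and March1 in the symbol table.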

Additional observations from a re-analysis of the deposited data

Results flagged for a closer look

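Among the 10 genes and 6 library measures, 32 groups of 5 libraries were screened for a library far from the rest, and 1 was found. Chance flags about 1 in 20 such groups, so 1 of 32 is no excess. Gpnmb in PBS 14 stood at 11.5 CPM, apart from the other PBS libraries at 3.98 to 5.89 CPM, with 0.745 of the group's range lying between it and its nearest neighbour. The pigment epithelium score was also highest in PBS 14 within its group, and with that score in the model the log2 fold change of Gpnmb was 0.47 in place of 0.64. With library number above 10 in the model the log2 fold change of Gpnmb was 0.54. The score was higher in libraries numbered above 10, so these covariates overlap, and no model held both.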

How the results depend on the processing

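The count of called genes was 0 under every alternative run: DESeq2, limma-voom, other scalings, no filter, either covariate and each library left out. Of the log2 fold changes of the 8 tested genes, 1 turned: Lgals3, from 0.14 to -0.0045 without CNP 4; the cause was not tested. With 1 library left out, Lyz2 ran from 1.14 to 1.54, Ccl6 from 0.71 to 0.95, Cd68 from 0.36 to 0.64, Gpnmb from 0.50 to 0.93, Cd74 from 0.62 to 1.33, H2-Aa from 0.79 to 1.17, H2-Ab1 from 0.11 to 0.30 and Lgals3 from -0.0045 to 0.28. Pairs of genes and correlations with library measures that passed also numbered 0 with library totals only, both other prior counts, the means of the library number sets removed, and each library left out. Library measures between groups were rerun only with each library left out, and 0 passed. No paired analysis was possible because the groups share no replicate number. H2-Eb1, with 34 and 36 counts, and Mrc1, with 3 and 4, are limited by depth.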
